A study of Mus musculus with 8 samples.

Results

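The genes described here shape the stacked membrane discs of the photoreceptor outer segment, hold up its axoneme or form the extracellular matrix around it. They were chosen by name for these roles, and all 10 were found among the 31053 genes of the count files through their Ensembl identifiers. They are Prph2, Rom1 and Abca4 of the disc rim, Prom1 and Cdhr1 of disc formation, Rp1 and Rp1l1 of the axoneme, Reep6 of membrane protein trafficking, and Impg1 and Impg2 of the interphotoreceptor matrix. The study asked how loss of Bbs8, also named Ttc8, a subunit of the BBSome complex that carries proteins into and out of cilia, alters the retinal pigment epithelium (RPE). RPE was isolated at postnatal day 29 from C57/Bl6 mice, 4 of them Bbs8 wild type and 4 Bbs8 knockout (Bbs8-/-) littermates, untreated and with the sex not determined. The knockout was present in the whole body and not in RPE alone. Total RNA of each mouse (30 ng) was turned into 3′ mRNA tag libraries, in which a gene's count does not depend on its length. Counts over all genes came to 3093428, 2736947, 2495094 and 2790955 in wild type libraries 1 to 4 and to 2389835, 2722440, 2415310 and 2736289 in knockout libraries 1 to 4.

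The outer segment is a modified cilium filled with flattened discs, whose curved rims are held by tetraspanin complexes and whose new discs form at its base. RPE cells wrap the tips of the outer segments and take up the discs that are shed each day. The matrix between both cell layers is rich in hyaluronan and in the proteoglycans that bind it, and variants in most of the genes described here are known from inherited retinal degeneration.

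Ttc8, the targeted gene (ENSMUSG00000021013, chr12:98920574-98983238, plus strand, GRCm38), had 105, 142, 144 and 116 counts in wild type libraries 1 to 4 and 15, 5, 14 and 15 counts in knockout libraries 1 to 4. The labels thus matched the gene in all 8 libraries, with knockout levels at 9.88% of wild type (95% interval 6.53 to 14.9, edgeR adjusted p = 2.47e-11). Whether the 3′ tags of Ttc8 lie in the deleted part is not given in the sources used here. Among the libraries, wild type library 1 stood apart from its genotype: its chi-square per degree of freedom against each other wild type library was 6.07 to 7.50, where the other wild type pairs gave 2.87 to 3.41 and the knockout pairs 4.17 to 5.05. The disc and matrix genes called lower in the knockout numbered 8 with and without that library.

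Of the 10 disc and matrix genes, 8 were lower in the knockout and none was higher at an adjusted p under 0.05 in edgeR, where 6.80% of all 12889 tested genes were lower and 5.46% higher. Those 8 also showed no overlap between the genotypes, every knockout library lying below every wild type library, as in 8.62% of all tested genes. As log2 fold change (knockout over wild type), the 10 genes had a median of -0.89 and all tested genes one of 0.02. Together the 10 genes held 9743, 9456, 9482 and 9907 CPM (counts scaled to a library total of 1000000 gene counts) in wild type libraries 1 to 4 and 4522, 4485, 4535 and 4743 in knockout libraries 1 to 4. Signs of library quality also differed between the genotypes. Reads outside genes made up 18.45%, 17.35%, 17.12% and 17.02% of all reads in wild type libraries 1 to 4 and 20.50%, 20.61%, 19.80% and 20.04% in knockout libraries 1 to 4. Genes with at least 1 count numbered 14115, 14382, 14384 and 14496 in wild type libraries 1 to 4 and 13657, 14029, 13998 and 14084 in knockout libraries 1 to 4. Neither measure overlapped between the genotypes, and their part in the lower levels of the 8 genes was not tested. In bulk samples such as these, fewer cells of a type and less RNA per cell cannot be told apart. All 10 fitted log2 fold changes were negative, in edgeR and in DESeq2. In the plot of the fitted changes Reep6 lies furthest down, 7 genes of discs and axoneme less far, and the matrix pair short of the threshold.

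**Figure D1:**
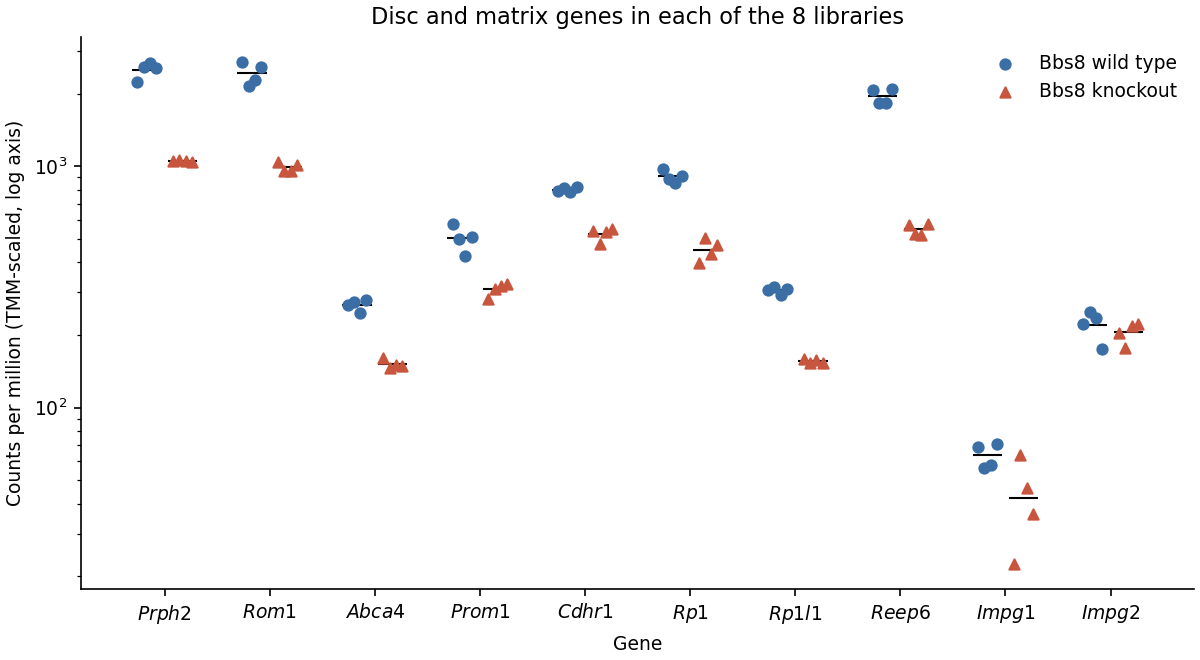
TMM-scaled CPM (log axis) of the 10 disc and matrix genes in each of the 4 Bbs8 wild type libraries (circles) and 4 Bbs8 knockout libraries (triangles), with black bars at the genotype means. The genotypes do not overlap for the first 8 genes and overlap for Impg1 and Impg2.

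Prph2 encodes peripherin 2, the tetraspanin that bends the disc membrane at its rim (ENSMUSG00000023978, chr17:46910459-46924933, plus strand). In CPM after TMM scaling, which the values of single genes use throughout, it was at 2234, 2578, 2683 and 2551 in wild type libraries 1 to 4 and at 1056, 1064, 1053 and 1046 in knockout libraries 1 to 4. Wild type library 1 was the lowest of its genotype, and the knockout libraries lay close together, with an SD of 7.5 CPM against 194 CPM in wild type. Prph2 fell to 42.0% of wild type (95% interval 38.4 to 45.9), a log2 fold change of -1.25 ± 0.063 (SE, n = 4 per genotype, edgeR adjusted p = 2.68e-18).

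Rom1 encodes the second rim tetraspanin, which joins peripherin 2 in mixed complexes (ENSMUSG00000071648, chr19:8927391-8929356, minus strand). It was at 2706, 2148, 2274 and 2571 CPM in wild type libraries 1 to 4 and at 1042, 955, 953 and 1008 CPM in knockout libraries 1 to 4. Here wild type library 1 was the highest of its genotype, the opposite of its place for Prph2, and the genotypes again stood clear of each other. Rom1 fell to 40.8% of wild type (95% interval 37.1 to 44.9), a log2 fold change of -1.29 ± 0.069 (SE, n = 4 per genotype, edgeR adjusted p = 1.17e-17). The ratio of Prph2 to Rom1 counts was 0.826, 1.20, 1.18 and 0.992 in wild type libraries 1 to 4 and 1.01, 1.11, 1.10 and 1.04 in knockout libraries 1 to 4. The ratios of both genotypes overlapped, with a log2 difference of 0.04 that an exact permutation test did not separate from 0 (p = 0.857, also 0.857 after adjustment over 6 pairs of genes). The sign of that difference rested on wild type library 1, without which it was -0.07.

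Abca4 encodes the disc rim transporter that clears retinoids from the disc interior (ENSMUSG00000028125, chr3:122044443-122180123, plus strand). Its levels were 266, 273, 246 and 278 CPM in wild type libraries 1 to 4 and 161, 146, 150 and 149 CPM in knockout libraries 1 to 4. All knockout libraries were below all wild type libraries, but the gap was narrower than for the rim tetraspanins. Abca4 fell to 57.0% of wild type (95% interval 49.7 to 65.3), a log2 fold change of -0.81 ± 0.097 (SE, n = 4 per genotype, edgeR adjusted p = 4.27e-08). Its count relative to that of Prph2 was higher in all 4 knockout libraries, at 0.138 to 0.153, than in wild type, at 0.0917 to 0.119. This log2 difference of 0.44 had an exact permutation p of 0.0286, the smallest that the 70 regroupings of 4 against 4 libraries can give, and did not pass 0.05 after adjustment over the 6 pairs (p = 0.0857).

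Because several disc genes moved together, their promoters were read from the RefSeq promoter table (GRCm38.p6), which gives 250 bases before to 50 bases after a gene's start and held 8 promoters of 7 of the 10 genes, with 2 of them for Prom1. The letters searched on both strands were TAATCC, the core of sites of the photoreceptor factor CRX, and TGCTGA, the core of sites of the rod factor NRL. TAATCC or its reverse complement stood in 7.06% of the 32851 promoters of the table and in 1 of these 8, that of Abca4. TGCTGA stood in 19.5% of all promoters and in 0 of the 8. A shorter form, TAATC, which lies within TAATCC and was chosen after those counts were seen, stood in 22.0% of all promoters and in 5 of the 8 (those of Prph2, Abca4, Impg1 and Impg2 and 1 of the 2 of Prom1). The Prom1 promoter that held it was chr5:44094719-44095018, and the one nearer to the annotated start of the gene, chr5:44101687-44101986, held 0 matches. The 4 promoters printed here set the rim genes beside Impg2, whose level differed least between the genotypes, with TAATC or its reverse complement GATTA in capitals.
Prph2 promoter, chr17:46910228-46910527, plus strand: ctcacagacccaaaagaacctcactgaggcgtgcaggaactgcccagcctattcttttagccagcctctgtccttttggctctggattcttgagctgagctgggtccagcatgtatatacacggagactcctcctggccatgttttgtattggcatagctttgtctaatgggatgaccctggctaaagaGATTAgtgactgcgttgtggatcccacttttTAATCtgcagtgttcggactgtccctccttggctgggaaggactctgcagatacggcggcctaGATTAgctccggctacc
Rom1 promoter, chr19:8929307-8929606, minus strand: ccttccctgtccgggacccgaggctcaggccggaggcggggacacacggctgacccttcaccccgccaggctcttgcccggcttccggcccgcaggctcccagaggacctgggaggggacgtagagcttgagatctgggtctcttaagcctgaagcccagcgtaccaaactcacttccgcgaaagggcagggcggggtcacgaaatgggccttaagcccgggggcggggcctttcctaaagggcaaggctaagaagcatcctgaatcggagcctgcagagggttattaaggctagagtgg
Abca4 promoter, chr3:122044210-122044509, plus strand: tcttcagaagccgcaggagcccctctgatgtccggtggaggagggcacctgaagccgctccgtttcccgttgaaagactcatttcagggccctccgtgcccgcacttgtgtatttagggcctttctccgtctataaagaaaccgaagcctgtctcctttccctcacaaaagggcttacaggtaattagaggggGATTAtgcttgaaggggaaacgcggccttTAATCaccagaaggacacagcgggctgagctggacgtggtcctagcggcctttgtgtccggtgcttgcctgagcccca
Impg2 promoter, chr16:56204063-56204362, plus strand: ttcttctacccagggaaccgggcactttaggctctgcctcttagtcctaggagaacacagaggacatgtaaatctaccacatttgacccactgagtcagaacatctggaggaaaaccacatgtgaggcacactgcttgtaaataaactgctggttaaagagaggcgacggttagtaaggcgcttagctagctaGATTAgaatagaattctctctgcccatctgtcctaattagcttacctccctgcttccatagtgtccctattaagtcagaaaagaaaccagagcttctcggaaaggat
The Prph2 promoter held 3 matches, beginning 61 and 30 bases before and 33 bases after the start, and the Abca4 promoter held 2, beginning 57 and 28 bases before it. The Rom1 promoter held 0 matches, and the Impg2 promoter held 1, beginning 57 bases before the start. A match describes letters only, and binding was not measured.

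Prom1 encodes prominin 1, a membrane protein of the open edges of forming discs (ENSMUSG00000029086, chr5:43993620-44102032, minus strand). It was at 577, 500, 426 and 509 CPM in wild type libraries 1 to 4 and at 281, 310, 320 and 324 CPM in knockout libraries 1 to 4. Wild type libraries 1 and 3 marked the ends of a wide range, yet the lowest wild type library stayed above the highest knockout library. Prom1 fell to 61.4% of wild type (95% interval 54.1 to 69.7), a log2 fold change of -0.70 ± 0.090 (SE, n = 4 per genotype, edgeR adjusted p = 1.75e-07). An exon of Prom1 shares bases with an exon of the plus-strand gene Gm16401, and the strand setting of the counting is not given in the sources used here, so reads of the 2 genes may not be told apart at that exon. No exon of Gm16401 starts or ends within 500 bases of the annotated 3′ end of Prom1.

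Cdhr1 encodes a photoreceptor cadherin at the edges of the same forming discs (ENSMUSG00000021803, chr14:37077857-37098347, minus strand). Its levels were 790, 815, 780 and 817 CPM in wild type libraries 1 to 4 and 541, 478, 534 and 548 CPM in knockout libraries 1 to 4. The wild type libraries were tight here and knockout library 2 was the lowest of all. Cdhr1 fell to 65.6% of wild type (95% interval 59.1 to 72.9), a log2 fold change of -0.61 ± 0.075 (SE, n = 4 per genotype, edgeR adjusted p = 6.97e-08). Prom1 and Cdhr1 did not separate from each other: their count ratio was 0.547 to 0.730 in wild type and 0.520 to 0.649 in knockout libraries (log2 difference -0.09, exact permutation p = 0.457, adjusted over the 6 pairs 0.686). With 1 library left out at a time that difference ran from -0.15 to -0.01.

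Rp1 encodes a doublecortin-domain protein that binds the microtubules of the outer segment axoneme and helps to align the discs (ENSMUSG00000025900, chr1:3999557-4409241, minus strand). It was at 972, 890, 855 and 914 CPM in wild type libraries 1 to 4 and at 396, 504, 433 and 473 CPM in knockout libraries 1 to 4. The genotypes did not overlap, with knockout library 1 the lowest. Rp1 fell to 49.7% of wild type (95% interval 44.5 to 55.7), a log2 fold change of -1.01 ± 0.080 (SE, n = 4 per genotype, edgeR adjusted p = 1.61e-12). Rp1l1, its relative in the axoneme (ENSMUSG00000046049, chr14:63992506-64035025, plus strand), was at 306, 315, 293 and 310 CPM in wild type and at 160, 153, 158 and 153 CPM in knockout libraries 1 to 4. By SD over mean, Rp1l1 was the steadiest of the 10 genes within the knockout after Prph2, and the genotypes stood clear of each other. It fell to 50.9% of wild type (95% interval 44.7 to 58.1), a log2 fold change of -0.97 ± 0.094 (SE, n = 4 per genotype, edgeR adjusted p = 2.49e-10). The count ratio of Rp1 to Rp1l1 was 2.82 to 3.17 in wild type and 2.47 to 3.30 in knockout libraries, ranges that overlapped (log2 difference -0.04, exact permutation p = 0.714, adjusted 0.857). The difference changed sign without knockout library 1 (0.03).

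Reep6 encodes a protein that shapes the endoplasmic reticulum of rods and serves the export of membrane proteins toward the outer segment (ENSMUSG00000035504, chr10:80329953-80336441, plus strand). It was at 2060, 1829, 1820 and 2079 CPM in wild type libraries 1 to 4 and at 574, 525, 518 and 574 CPM in knockout libraries 1 to 4. No other of the 10 genes differed by as large a factor, and the libraries of each genotype lay close together. Reep6 fell to 28.1% of wild type (95% interval 25.5 to 31.1), a log2 fold change of -1.83 ± 0.070 (SE, n = 4 per genotype, edgeR adjusted p = 5.33e-22). Its count relative to that of Prph2 was 0.678 to 0.922 in wild type and 0.493 to 0.549 in knockout libraries. The groups of this ratio did not overlap (log2 difference -0.58, exact permutation p = 0.0286), although the adjusted value over the 6 pairs was 0.0857.

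Impg1 and Impg2 encode the proteoglycans SPACR and SPACRCAN, which bind hyaluronan in the interphotoreceptor matrix. Impg1 (ENSMUSG00000032343, chr9:80313330-80465481, minus strand) had the lowest counts of the 10 genes, with 204, 151, 142 and 191 in wild type libraries 1 to 4 and 55, 178, 116 and 104 in knockout libraries 1 to 4. The genotypes overlapped, since knockout library 2 lay within the wild type range, while knockout library 1 was far below the rest. The fitted level in the knockout was 66.7% of wild type (95% interval 50.2 to 88.6), a log2 fold change of -0.59 ± 0.20 (SE, n = 4 per genotype), and did not pass the threshold (edgeR adjusted p = 0.0517). Impg1 did pass it in 5 of 17 alternative settings. These were the likelihood ratio test (edgeR adjusted p = 0.0409), TMM factors made without photoreceptor, lens and erythrocyte genes (0.0469), no filter on low counts (0.0111), a replicate block (0.0331) and the fit without knockout library 2 (log2 fold change -0.85, adjusted p 0.00465). Without knockout library 1 the values were -0.38 and 0.215, and over all alternatives tried the adjusted p ran from 0.00465 to 0.215.

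Impg2 (ENSMUSG00000035270, chr16:56204313-56273756, plus strand) was at 223, 249, 235 and 175 CPM in wild type libraries 1 to 4 and at 204, 177, 217 and 222 CPM in knockout libraries 1 to 4. Wild type library 4 was the lowest of the 8 libraries, so that the genotypes overlapped in full. That overlap rested on this library, since the other wild type libraries, at 223 to 249 CPM, lay above all knockout libraries. The fitted level in the knockout was 92.9% of wild type (95% interval 79.8 to 108), with a log2 fold change of -0.11 ± 0.11 (SE, n = 4 per genotype, edgeR adjusted p = 0.621) that became 0.03 when libraries were scaled to RPE genes. It was -0.20 without wild type library 4 (edgeR adjusted p = 0.314) and -0.04 without knockout library 2 (0.901). The interval reached neither the change of the rim tetraspanins nor that of the axoneme genes. The count ratio of Impg1 to Impg2 was 0.227 to 0.406 in wild type and 0.112 to 0.362 in knockout libraries, a difference within the spread of the libraries (log2 difference -0.58, exact permutation p = 0.229, adjusted 0.457). Its size depended on single libraries, at -0.31 without knockout library 1 and -0.87 without knockout library 2.

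**Figure D2:**
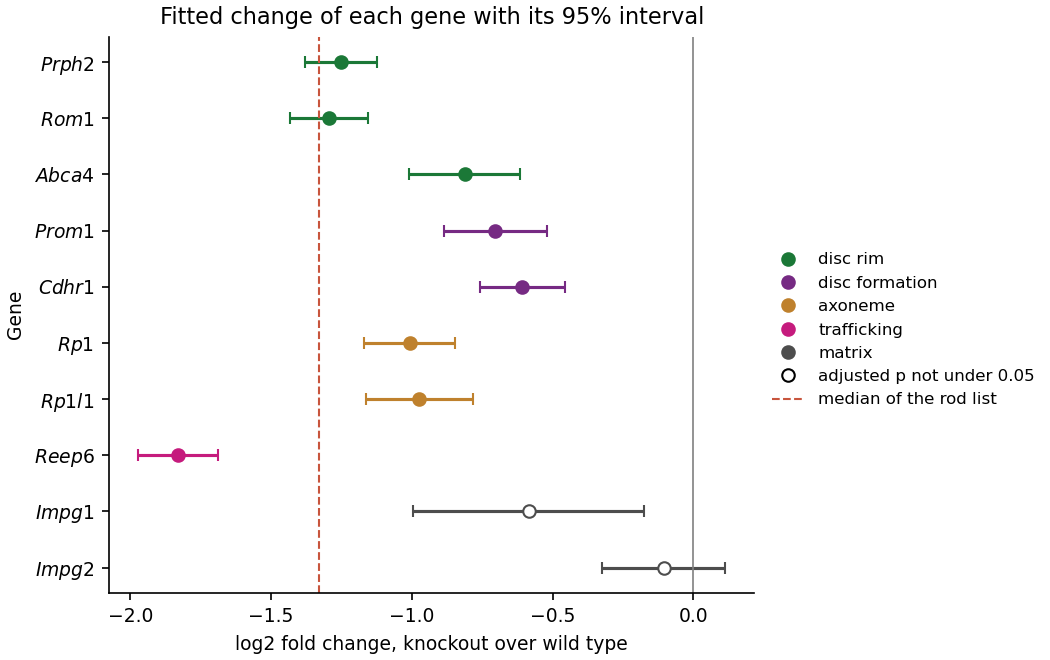
Fitted log2 fold change of each gene, knockout over wild type (n = 4 per genotype), with its 95% interval from edgeR, coloured by role. Filled circles mark an adjusted p under 0.05, open circles mark Impg1 and Impg2, and the dashed line is the median of the rod list (-1.33).

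The levels of rod genes moved with these results. The summed counts of 9 rod genes were 34442, 32787, 32816 and 33549 CPM of all gene counts in wild type libraries 1 to 4 and 16338, 15914, 16231 and 16457 in knockout libraries 1 to 4. Of the 9 genes, 8 were lower in the knockout and 0 higher. The median of their log2 fold changes was -1.33. Gngt1 was the exception (log2 fold change -0.14, edgeR adjusted p = 0.609), with wild type library 1 at 433 CPM and the other wild type libraries at 919 to 1155 CPM. Without that library Gngt1 was lower as well (log2 fold change -0.37, edgeR adjusted p = 0.000223). The most abundant gene of the list was Sag, with 30.1% of its counts, and no gene of it was at 0.

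Each disc and matrix gene was therefore set against the summed rod counts of the same library, a ratio that does not depend on how libraries are scaled. It is written as a percent of that sum, which holds none of the 10 genes. Exact permutation tests of the 10 ratios are given without adjustment, and 0.0286 is the smallest p they can give. Abca4, Prom1, Cdhr1, Rp1l1 and Impg2 had a higher ratio to the rod sum in every knockout library than in any wild type library, and Reep6 a lower one. Prph2, Rom1, Rp1 and Impg1 had ratios that overlapped between the genotypes.

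The ratio of Impg2 to the rod sum was 0.619%, 0.744%, 0.703% and 0.504% in wild type libraries 1 to 4 and 1.27%, 1.14%, 1.39% and 1.41% in knockout libraries 1 to 4. It was 2.04 times that of wild type (log2 difference 1.03, exact permutation p = 0.0286), the widest upward gap of the 10 genes. For the disc formation genes, the ratio of Cdhr1 rose from 2.33% ± 0.102 to 3.34% ± 0.179 (SD, n = 4, 1.43 times, exact permutation p = 0.0286). The ratio of Prom1 rose from 1.46% ± 0.135 to 1.96% ± 0.142 (SD, n = 4, 1.35 times, exact permutation p = 0.0286). Cdhr1 and Prom1 had thus fallen by a smaller factor than the rod sum, while the level of Impg2 itself did not pass the threshold (edgeR adjusted p = 0.621).

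The ratio of Abca4 was 0.772% ± 0.0421 in wild type and 0.962% ± 0.0284 in knockout libraries (SD, n = 4, 1.25 times, exact permutation p = 0.0286). Rp1l1 showed the smallest of the separated gaps, 0.849% to 0.942% in wild type against 0.975% to 1.01% in knockout libraries (1.11 times, exact permutation p = 0.0286). Rp1, its partner in the axoneme, was at 2.56% to 2.69% in wild type and at 2.47% to 3.25% in knockout libraries, with the knockout libraries on both sides of wild type (log2 difference 0.12, exact permutation p = 0.257). That difference was 0.19 without knockout library 1 and 0.06 without knockout library 2. Reep6 went the other way.

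The ratio of Reep6 to the rod sum was 5.71%, 5.46%, 5.44% and 5.97% in wild type libraries 1 to 4 and 3.58%, 3.38%, 3.31% and 3.65% in knockout libraries 1 to 4. This was 0.616 times the wild type ratio (log2 difference -0.70, exact permutation p = 0.0286), so that Reep6 had fallen by a larger factor than the rod sum. The rim tetraspanins did not separate from it. Prph2 was at 6.19% to 8.02% in wild type and 6.59% to 6.85% in knockout libraries (log2 difference -0.12, exact permutation p = 0.2). Its overlap rested on wild type library 1, since the other wild type libraries, at 7.33% to 8.02%, all lay above the knockout, and without it the log2 difference was -0.20. Rom1 was at 6.42% to 7.50% and 6.07% to 6.50% (log2 difference -0.16, exact permutation p = 0.0571). Impg1 spanned 0.141% to 0.411% in the knockout, on both sides of the 0.168% to 0.204% in wild type (exact permutation p = 0.257), with a log2 difference of 0.45 that was 0.73 without knockout library 1 and 0.21 without knockout library 2.

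**Figure D3:**
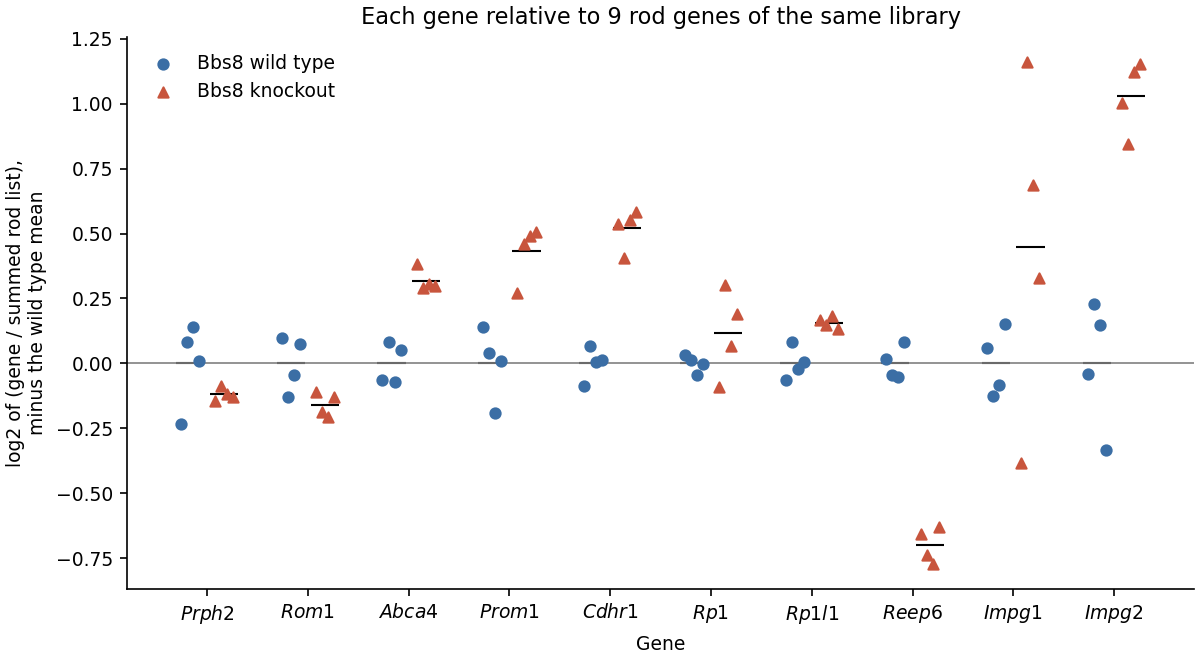
Log2 of each gene's count over the summed counts of 9 rod genes of the same library, minus the wild type mean of that gene, for wild type (circles) and knockout libraries (triangles), n = 4 each, with bars at the means. Impg2 lies highest (1.03) and Reep6 lowest (-0.70).

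These positions depend on the reference. Against 5 genes shared by rods and cones, the genes clearly above numbered 3 (Abca4, Cdhr1 and Impg2) and those clearly below also 3, with Prph2 and Rom1 joining Reep6 (exact permutation p = 0.0286 each), while Prom1 had p = 0.0571 and Rp1l1 p = 0.543. Against 10 cone genes, whose sum went up in the knockout, all 10 disc and matrix genes were lower (exact permutation p = 0.0286 each). Gnb3 alone held 33.6% of the cone counts, with a log2 fold change of 2.65 where the median of the cone list was 0.80. Reep6 was below and Abca4, Cdhr1 and Impg2 were above both references that hold rod genes.

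Among the 3285 genes that averaged 50 CPM or more, the closest in pattern over the 8 libraries were found by the root-mean-square difference of centred log2 CPM. Near Abca4 lay Agpat3 (0.0457) and Map1b (0.0717). Near Prph2 lay Guca1b (0.0710), which encodes a guanylate cyclase activator, and Kcnj14 (0.0768). Those nearest to Rom1 were Slc17a7 (0.0608), Pde6g (0.0665) and Hba-a1 (0.0892), a haemoglobin gene of red blood cells. Each gene was centred over both genotypes together, so a small distance also needs a similar change between them. The log2 fold change was -1.29 for Rom1 and -1.39 for Hba-a1. Rp1l1 lay next to Nr2e3 (0.0510), Rcvrn (0.0573) and Rax (0.0635), and Rp1 next to Rims2 (0.0700), Unc119 (0.0750) and Platr17 (0.0765). Prom1 lay next to Rmdn3 (0.0666), Wfikkn2 (0.0672) and Ypel3 (0.0733), and Cdhr1 next to Slc16a6 (0.0510), Slc6a13 (0.0613) and Ybx1 (0.0628). Of the disc and matrix genes, only Rom1 (Pde6g), Rp1l1 (Nr2e3) and Reep6 (Nrl) had a gene of the rod list among their nearest. Reep6 had more distant neighbours, among them Pkm (0.167) and Nrl (0.170). For Impg1 they were B230118H07Rik (0.122), Pcnt (0.161) and Psd (0.192), and for Impg2 Bola3 (0.0614), Cxxc4 (0.0896) and Kdelr1 (0.0932).

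Of 22 other genes of outer segment structure and upkeep, 21 were tested, of which 17 were lower in the knockout and 0 higher (15 lower when libraries were scaled to RPE genes). Their median log2 fold change was -1.01, where all tested genes had 0.02. The largest changes were those of Fscn2, an actin-bundling protein of photoreceptors (log2 fold change -1.46, edgeR adjusted p = 2.20e-06), and of Cngb1, the rod channel subunit that links to the rim tetraspanins (-1.39, adjusted p = 5.25e-17). Cngb1 was at 845 ± 33.2 CPM in wild type and 323 ± 12.4 CPM in the knockout (SD, n = 4). The smallest were those of Adgrv1 (0.03, edgeR adjusted p = 0.965) and Spata7 (0.16, adjusted p = 0.823), neither past the threshold. Whrn (-0.62, edgeR adjusted p = 0.0594), named after its values were seen, also missed it, although its knockout libraries all lay below wild type. Rdh8, at 0 to 3 counts in each library, was left out by the filter on low counts.

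Of 13 other matrix genes, 9 were tested, of which 3 were lower and 0 higher, with a median of -0.50. That median was -0.30 without knockout library 2 and -0.24 with no filter on low counts, where 12 genes were tested. In both settings 3 genes were lower and 0 higher. Rbp3, the retinoid-binding protein of the interphotoreceptor matrix, was at 1235 ± 68.0 CPM in wild type and 709 ± 29.0 CPM in knockout libraries (SD, n = 4, log2 fold change -0.80, edgeR adjusted p = 1.68e-11). Mfge8, a secreted ligand in the uptake of shed outer segments, fell by a similar factor (log2 fold change -0.76, edgeR adjusted p = 1.27e-07). Egflam, which encodes pikachurin of the photoreceptor synapse and was named after its values were seen, was the third (-0.74, edgeR adjusted p = 1.34e-05). Timp3, an inhibitor of matrix proteases, was at 5000 ± 98.7 and 4751 ± 149 CPM (SD, n = 4, log2 fold change -0.07, edgeR adjusted p = 0.381), and Cd44, the hyaluronan receptor, did not pass either (-0.27, adjusted p = 0.85). Like Impg2, the other 6 tested genes of this list did not pass the threshold.

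Of 14 paralogs of the disc and matrix genes, 12 were tested, with 0 lower and 2 higher and a median of 0.29 (3 higher by library size alone, 5 with scaling to RPE genes, 1 with a replicate block and 1 with a filter at 5 CPM). In the family of Reep6, Reep1 had a log2 fold change of -0.67 (edgeR adjusted p = 0.639) at 2 to 19 counts and Reep3 one of 0.03 (adjusted p = 0.96), neither past the threshold. With 1 library left out at a time, the log2 fold change of Reep1 ran from -1.57 to -0.28. Dclk2, which shares the doublecortin domain of Rp1, was called higher (edgeR adjusted p = 0.016) on 0, 1, 3 and 0 counts in wild type and 22, 3, 23 and 4 counts in knockout libraries 1 to 4, and the call was lost without knockout library 1 (adjusted p = 0.0658), knockout library 3 (0.0758) or wild type library 4 (0.0587). Abca1, a relative of Abca4 named after its values were seen, had a log2 fold change of 0.63 (edgeR adjusted p = 0.0324), and its call was lost with the replicate block (adjusted p = 0.0546), without knockout library 1 (adjusted p = 0.14) or 4 (0.084) and without wild type library 1 (0.0852) or 4 (0.0934). Abca3 had a log2 fold change of 0.14 (edgeR adjusted p = 0.81) and did not pass.

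**Figure D4:**
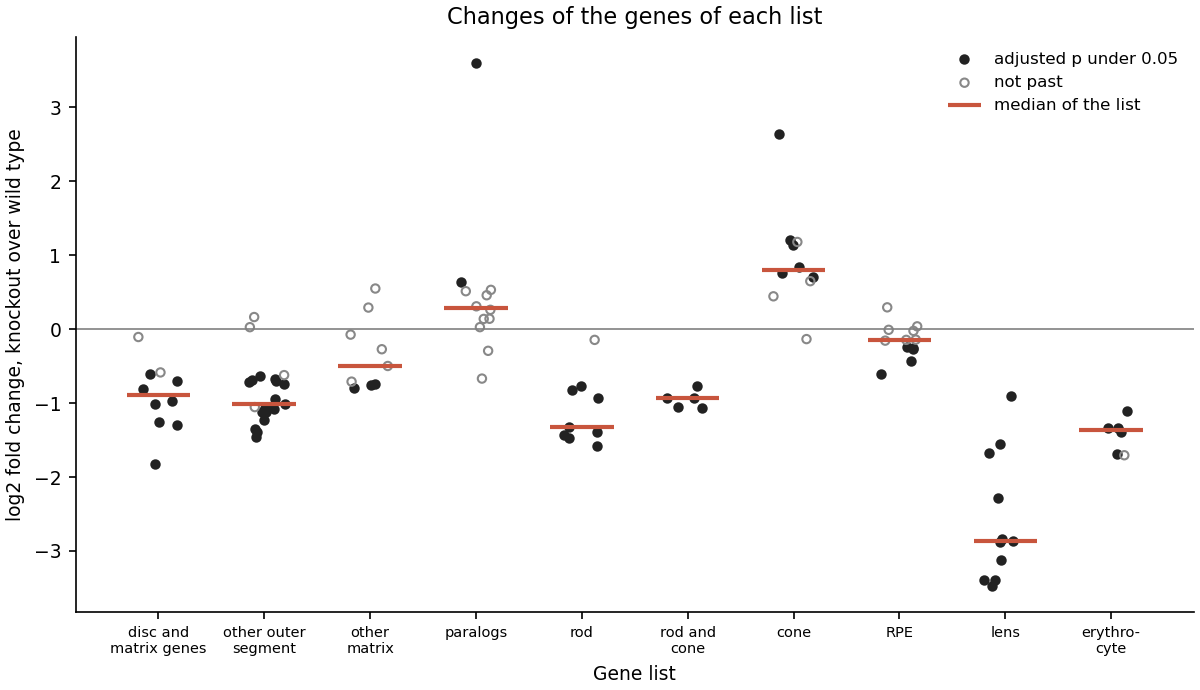
Log2 fold change, knockout over wild type, of the tested genes of 10 lists, with filled circles for an adjusted p under 0.05, open circles for the others and bars at the list medians (horizontal spread within a list is arbitrary). The disc and matrix genes lie with the other outer segment genes (medians -0.89 and -1.01), and the lens list lies lowest (-2.86).

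The isolation was checked with markers of RPE and of other cells. Of 12 RPE genes, 5 were lower and 0 higher in the knockout, with a median log2 fold change of -0.15, which was -0.01 with 2 lower and 1 higher when libraries were scaled to the list itself and -0.06 with 4 lower and 1 higher by library size alone. Their sum was 15416, 16474, 16572 and 15994 CPM of all gene counts in wild type and 15384, 15341, 15838 and 15657 in knockout libraries 1 to 4 (exact permutation p = 0.114, adjusted over 11 lists 0.126), led by Rgr. With TMM-scaled library sizes the RPE sum was lower in the knockout (log2 difference -0.14, exact permutation p adjusted over 11 lists 0.0393). Best1, an RPE marker, had only 0 to 5 counts per library.

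Markers of several other cell types also differed between the genotypes, some in the direction of the disc genes and some against it. The 5 genes shared by rods and cones, led by Pdc, were all lower, with sums of 9687, 9851, 9759 and 9945 CPM in wild type and 5112, 5290, 5231 and 5330 in knockout libraries 1 to 4. Of 10 cone genes, led by Gnb3, 6 were higher and 0 lower, with sums of 204, 201, 260 and 223 CPM in wild type and 513, 581, 571 and 597 in knockout libraries 1 to 4. In direction, the 8 genes called lower (Reep6 among them) went with the rod genes and against the cone genes. All 11 lens genes, led by Crygb, were lower, with sums of 3034, 3044, 2898 and 3110 CPM in wild type and 410, 424, 470 and 432 in knockout libraries 1 to 4. Of 6 erythrocyte genes, led by Hbb-bs, 5 were lower and 0 higher, with sums of 5461, 5049, 5251 and 5230 CPM in wild type and 2260, 2262, 2232 and 2076 in knockout libraries 1 to 4. The part of carried-over cells in the changes of the disc and matrix genes was not tested.

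Among the remaining lists, 7 Müller glia genes, led by Glul, had sums of 2091, 2419, 2403 and 2337 CPM in wild type and 2977, 2877, 3092 and 2920 in knockout libraries 1 to 4, with 1 gene lower and 1 higher. Of 7 bipolar cell genes, led by Trpm1, 1 was lower, with sums of 276, 282, 252 and 252 CPM in wild type and 233, 248, 220 and 199 in knockout libraries 1 to 4. The rod, cone, shared photoreceptor, Müller glia, bipolar, lens and erythrocyte sums each separated the genotypes (exact permutation p = 0.0286, adjusted over 11 lists 0.0449). The Müller glia separation was lost without Glul, which held 55.2% of the counts of its list (exact permutation p adjusted over 11 lists 0.286). The amacrine, microglia and endothelium sums, led by Slc6a9, Csf1r and Kdr, did not (exact permutation p = 0.0857, 0.83 and 0.0857), with Chat and Cldn5 at 3 counts or fewer in every library. These leading genes held 94.8%, 84.3% and 64.5% of the counts of their lists, so the sums mostly give their levels. The amacrine and microglia lists each had 1 gene called higher and 0 lower. No gene of the 11 lists was at 0 in all libraries.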

How the data were processed

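RPE was isolated at postnatal day 29 from 4 Bbs8 wild type and 4 Bbs8 knockout mice, and 3′ tag libraries were made from 30 ng total RNA and sequenced as single reads of 100 bp. The authors deposited counts per Ensembl gene, made by trimming with BBDuk, alignment to mm10 with STAR and counting with htseq-count. Reads outside genes (17.0% to 18.4% of all in wild type and 19.8% to 20.6% in knockout libraries), in more than 1 gene (0.244% to 0.296%) and with more than 1 alignment (32.8% to 34.5%) were left out of totals. The 12889 genes that reached 1 CPM in 4 or more libraries were tested with edgeR 4.0.16 in R 4.3.3 (TMM, trended dispersion, quasi-likelihood F test, Benjamini-Hochberg adjustment over all of them, threshold 0.05). Single ratios and list sums were tested with 2-sided exact permutation tests, with 1 added to each count for ratios between 2 genes. A floor of 3 counts equalled 1.02 to 1.23 CPM. Intervals and floors cover counting error and the spread of libraries only, since the sources name no molecular identifiers. The scripts were tested on simulated counts.

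The genes and lists were chosen with earlier results of these data known. Named were Ttc8, the 10 genes, in the outer segment, matrix and paralog lists the 2 largest and 2 smallest changes and genes moving against their list, the most abundant gene of each marker list, and the 3 genes nearest to each of the 10 in pattern. Some genes that this rule names are not reported here. Symbols and positions came from GENCODE on GRCm38, the assembly of mm10, and promoters from RefSeq. Alternatives were other tests (DESeq2 1.42.0, a likelihood ratio test), scalings, filters, references and thresholds, a replicate block, and leaving out each library.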

Additional observations from a re-analysis of the deposited data

Results flagged for a closer look

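Of 76 groups of 4 libraries examined for a value far from the other 3, 1 stood out, where chance gives about 1 in 20. The summed erythrocyte genes in knockout library 4 came to 2076 CPM of all gene counts, while the other knockout libraries lay at 2232 to 2262. All 4 values were below the wild type libraries. No value of the 10 disc and matrix genes, of their ratios to the rod sum or of the 6 ratios between them stood out in this way.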

How the results depend on the processing

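In 17 alternative settings the 8 genes called lower kept their direction and an adjusted p under 0.05, and Impg2 stayed short of it. Impg1 passed it in 5 of 17, with the likelihood ratio test (edgeR adjusted p = 0.0409), TMM factors from which the photoreceptor, lens and erythrocyte lists were left out (0.0469), no filter on low counts (0.0111), the replicate block (0.0331) and without knockout library 2 (0.00465). Leaving out each library gave 8 to 9 of the 10 genes lower, 0 higher, and 689 to 847 genes lower and 553 to 645 higher over all. Scaling to the RPE list moved the median of all genes by 0.14 (log2) and gave 561 genes lower and 1243 higher, against 877 and 704 (68.9% of calls higher, against 44.5%), and scaling by library size gave 60.5%, but the 10 genes had a median of -0.75 and -0.80 there. An adjusted p under 0.01 gave 571 lower and 394 higher. Against the mean log2 of the rod genes, 2 of the 10 genes lay below the reference, Rom1 joining Reep6; against the shared photoreceptor genes 3 lay above and 3 below. Against the cone genes 0 lay above and 10 below. There the log2 difference changed sign for Abca4 (-2.08), Prom1 (-1.96), Cdhr1 (-1.88), Rp1 (-2.28), Rp1l1 (-2.24), Impg1 (-1.95) and Impg2 (-1.37). The cone sum, of which Gnb3 held 33.6%, went up in the knockout, whereas the rod sum went down. Without its most abundant gene the microglia sum changed sign (log2 difference 0.76), the Müller glia sum no longer separated the genotypes (exact permutation p adjusted over 11 lists 0.286), and the RPE and amacrine sums did (0.0349 each), and the cause was not tested. Without 1 library the permutation tests cannot go below 0.0571, so those values have no test. The replicate numbers did not pair the libraries: same-numbered deviations correlated at -0.029 to 0.0086 and only 2 of 8 libraries correlated best with their own number. A replicate block gave 827 genes lower and 650 higher, with 9 of the 10 genes lower. At this depth 3 counts equalled 1.02 to 1.23 CPM, so that Rdh8, at 0 to 3 counts in each library, was tested only without the filter on low counts.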
